A study of Saccharomyces cerevisiae with 4 samples.

Results

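The genes described here are 35 of the 6549 entries listed for budding yeast (*Saccharomyces cerevisiae*) and encode the enzymes and carriers by which a cell lives on acetate: activation of acetate, the carnitine shuttle, the tricarboxylic acid (TCA) cycle, the glyoxylate cycle, gluconeogenesis and the NADP-dependent isocitrate dehydrogenases. They were taken by gene symbol from a list chosen with earlier results of these data known, and each was found in all 4 libraries. Diploid cells of the SK1 background, which sporulates efficiently, were harvested 4 h into sporulation, in a medium in which potassium acetate is the main carbon source beside a little raffinose, following a brief cycloheximide treatment that holds ribosomes on mRNA. Ribosome footprints (FP), the mRNA fragments protected by ribosomes, and mRNA were sequenced from wild-type and from *dbp1Δ::kanMX6* cells, with 1 library for each genotype in each assay. In *dbp1Δ::kanMX6* cells, called the deletion below, a drug-resistance cassette replaces both copies of the ORF of *DBP1*, an RNA helicase gene, and the sequences next to the ORF were kept. The strains of the study share the alleles *ho::LYS2*, *lys2*, *ura3* and *trp1::hisG* besides other auxotrophic markers, and mutants were backcrossed after transformation. The labels give neither a strain number nor the number of clones.

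A cell given only acetate must build everything from 2-carbon units. Acetyl-CoA synthetase couples acetate to coenzyme A. Acetyl-CoA does not cross membranes, but its acetyl group can travel to the mitochondria on carnitine where carnitine is available. There the TCA cycle oxidizes it for respiration, which sporulating yeast cells require. The glyoxylate cycle skips the decarboxylating steps of the TCA cycle and so yields a net gain of malate and oxaloacetate, from which phosphoenolpyruvate carboxykinase starts the path back to sugar. Most of these genes are repressed by glucose and turned on by the activators Cat8, Sip4, Adr1 and the Hap complex. Mitochondrial defects can further turn on the genes for the steps up to 2-oxoglutarate through the retrograde regulators Rtg1 and Rtg3, with *CIT2* as the best known target.

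Values are RPKM, reads per kilobase of ORF per 1000000 mapped reads, so that levels of different genes can be compared within a library. With no replicates, no difference between genotypes can be set against a replicate spread and none was tested. Depth was inferred from the steps of the low values as 2215000 to 4750000 reads per library, and at these depths every gene of the group had at least 39 inferred reads in each library. The intervals given after ratios are 95% intervals of counting error alone, between these libraries and not between genotypes. Footprint *DBP1* was 435.2 RPKM in the wild-type and 6.9 RPKM in the deletion library, and *DBP1* mRNA 131.5 and 2.9 RPKM, which is the order the labels call for. Its neighbor *MRP51*, which encodes a mitochondrial ribosomal protein, had 47.0 and 5.6 RPKM of footprints against 96.8 and 173.8 RPKM of mRNA, so that loss of Dbp1 and reduced translation of *MRP51* cannot be told apart in this comparison. A list of 15 middle meiotic genes, drawn up after earlier results of these data were known, was used as a marker of the meiotic stage. It held *SPS4*, *MPC54*, *SPR3*, *CDC5*, *CLB4*, *DON1*, *SMK1*, *SPR28*, *SSP1*, *NDT80*, *CLB1*, *SPO21*, *SPS2*, *SPS1* and *CLB3*. Footprints of these genes summed to 25280.5 RPKM in wild type and 9572.8 RPKM in the deletion. They were lower for 15 of 15 genes, where 68.7% of 5453 entries were higher. The mRNA summed to 28693.5 and 12652.3 RPKM, lower for 14 of 15, where 28.6% of 5551 entries were lower. None was at 0. *SPS2* and *SPS4* weighed most in these sums. The part of meiotic stage in the differences below was not tested.

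In wild-type cells most of the 35 genes were abundant and heavily translated, with 30 of them above the median entry in mRNA and 5 below it. Their median mRNA level was 601.5 RPKM, against 58.3 RPKM over the 5552 entries that averaged 10 RPKM or more in the 4 libraries, and 17 of them lay in the upper 5% of those entries. The median footprint level was 973.3 RPKM against 41.25 RPKM, with 20 genes in the upper 5%. Translation efficiency (TE), the footprint RPKM divided by the mRNA RPKM, had a median of 1.36 against 0.733. In TE 30 of the 35 genes lay above the median entry, though only 5 lay in the upper 5% of entries. In all, the group took 7.55% of the reads of the wild-type footprint library (7.52 to 7.57, Wilson interval) and 8.17% of those of the deletion (8.14 to 8.20). Of mRNA reads it took 4.47% (4.45 to 4.50) and 4.07% (4.06 to 4.09). Its share was thus larger in the deletion for footprints and smaller for mRNA, both by more than counting error. The median entry was 1.27-fold higher in footprints, a larger rise than that of the group's share. Relative to the median entry the group's footprint share was thus lower.

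The order of the wild-type mRNA levels put the peroxisomal citrate synthase gene *CIT2* first at 2634.6 RPKM, with the acetyl-CoA synthetase gene *ACS1* at 2626.7 RPKM and the phosphoenolpyruvate carboxykinase gene *PCK1* at 2574.3 RPKM close behind. The mitochondrial citrate synthase gene *CIT1* at 1803.8 RPKM and the mitochondrial aldehyde dehydrogenase gene *ALD4* at 1473.8 RPKM followed. The lowest were the cytosolic aldehyde dehydrogenase gene *ALD6* at 13.2 RPKM, the malic enzyme gene *MAE1* at 34.8 RPKM and the malate synthase paralog *DAL7* at 38.8 RPKM. Footprints followed another order, with *ACS1* alone at the top at 9167.7 RPKM.

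**Figure D1:**
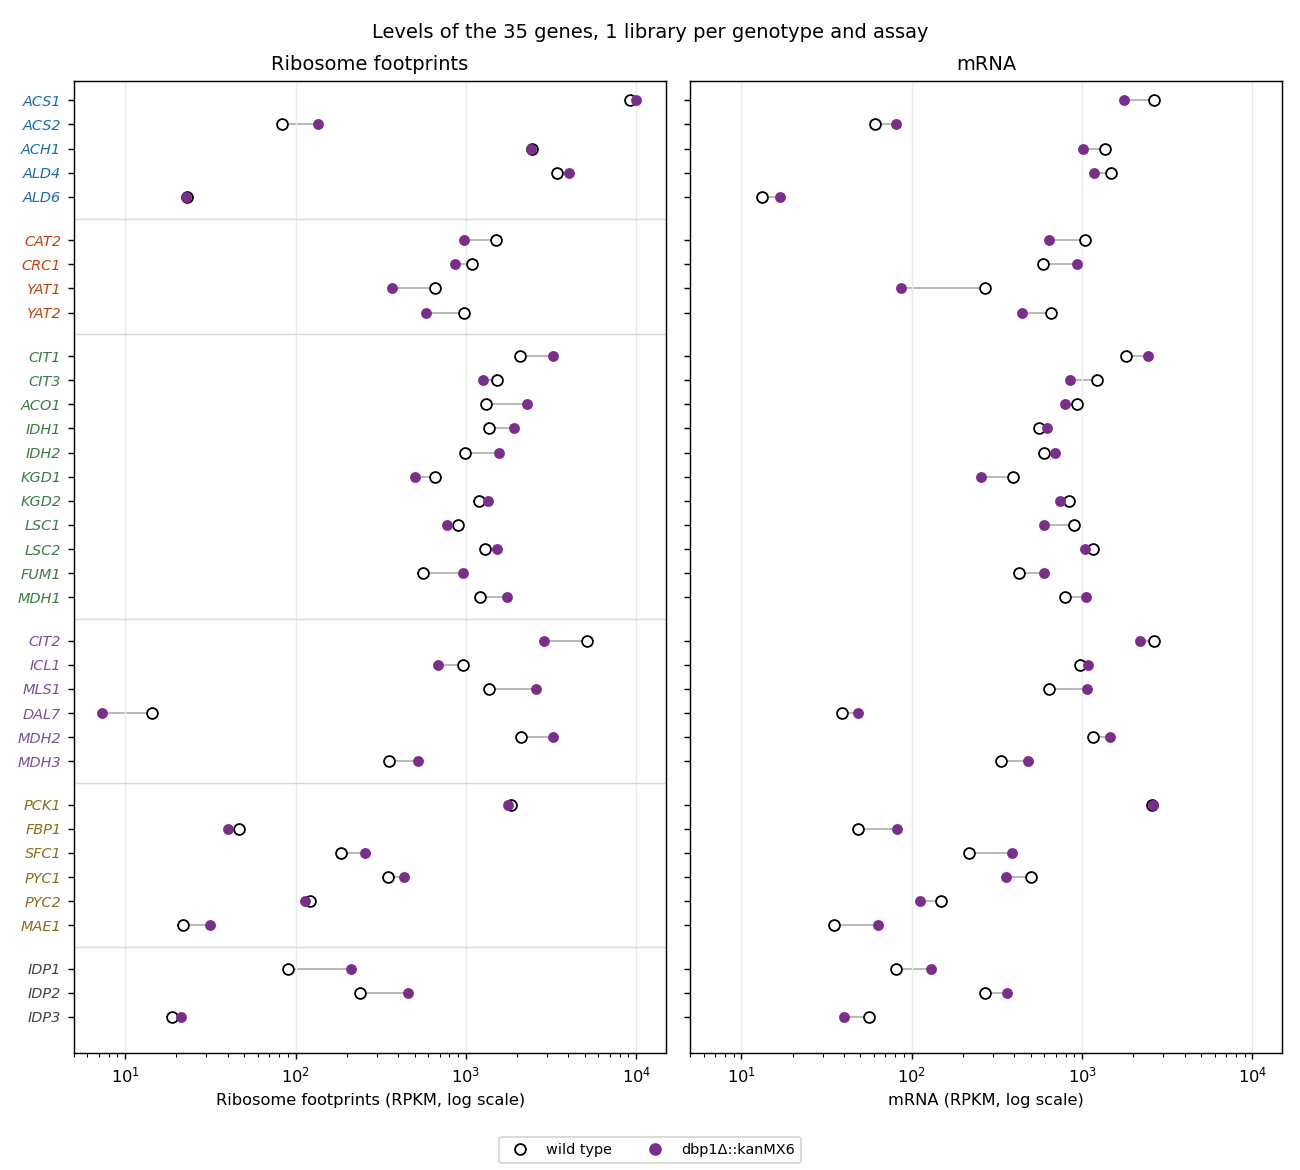
RPKM of each of the 35 genes (log axes) for footprints (left) and mRNA (right), with open circles for the wild-type library, filled circles for the deletion library and a line joining the 2; 1 library each, no error bars. Gene names are colored by role, in the order activation, carnitine shuttle, TCA cycle, glyoxylate cycle, gluconeogenesis and anaplerosis, and NADP isocitrate dehydrogenases. Wild-type mRNA levels range from 13.2 RPKM for *ALD6* to 2634.6 RPKM for *CIT2*, and the largest gap in mRNA is at *YAT1*.

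Few of the 35 genes differed between genotypes by as much as 2-fold. Footprints of 1 gene, the mitochondrial isocitrate dehydrogenase gene *IDP1*, were at least 2-fold higher in the deletion and none were at least 2-fold lower, where 15.1% and 8.23% of 5453 entries were. For mRNA, none were at least 2-fold higher and 1, the carnitine acetyltransferase gene *YAT1*, was at least 2-fold lower, where 16.6% and 4.18% of 5551 entries were. TE of the aconitase gene *ACO1* was at least 2-fold higher and that of *DAL7* at least 2-fold lower, where 3.43% and 6.07% of 5452 entries were. The shares over all entries are a description, since most entries are expressed at lower levels than these 35 genes.

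The median entry was itself higher in the deletion, by 0.35 (log2) for footprints and 0.37 for mRNA, and lower by 0.07 for TE, and a ratio whose direction turns once this shift is subtracted is given relative to the median entry as well. Over the 35 genes the median log2 ratio was 0.18 for footprints and 0.15 for mRNA, which is −0.17 and −0.22 relative to the median entry. The median TE ratio was 0.29, or 0.36 above the median entry. Relative to the median entry, no gene was 2-fold higher in footprints and 4 were 2-fold lower (*CIT2*, *DAL7*, *YAT1* and the carnitine acetyltransferase gene *YAT2*), and in mRNA 2 were 2-fold lower (*YAT1* and *CAT2*). After the same subtraction 6.36% of all entries were 2-fold higher and 12.8% lower in footprints, and 8.43% lower in mRNA, so that these counts are near or below the background. In bulk samples such as these, fewer cells expressing a gene and less RNA per cell cannot be told apart.

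Smaller differences ran in both directions for footprints and mRNA but mostly in 1 direction for TE. As deposited, footprints were higher in the deletion for 20 genes and lower for 15, where 68.7% of 5453 entries were higher, and mRNA higher for 19 and lower for 16, where 28.6% of 5551 entries had lower mRNA. The interval of the footprint ratio lay above 1 for 19 genes, below 1 for 11 and held 1 for 5, and for mRNA the counts were 17, 16 and 2. TE was higher in the deletion for 25 of the 35 genes, with 24 intervals above 1 and 8 below, where 44.8% of 5452 entries had a higher TE. At 1.5-fold, 9 genes were higher and 5 lower in footprints, where 36.3% and 13.9% of entries were. In mRNA, 6 were higher and 3 lower at 1.5-fold, where 36% and 9.12% of entries were, and in TE 5 and 4, where 10.7% and 18% were. Subtracting the median entry turned the direction of 6 footprint ratios (*ACS1*, *KGD2*, *LSC2*, *PYC1*, *IDP3*, *ALD4*), 7 mRNA ratios (*IDH1*, *IDH2*, *MDH2*, *ICL1*, *DAL7*, *PCK1*, *ALD6*) and 1 TE ratio (*PCK1*), and left 26 genes with a TE above the median entry.

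Because most of the 35 genes are highly expressed, they were also set beside the 392 entries that averaged 500 RPKM or more, a background chosen after the data were seen. There the median entry had log2 ratios of 0.06 (footprints), −0.02 (mRNA) and −0.04 (TE). The 21 genes of the group above that level had medians of 0.17, −0.15 and 0.29, in the same order. Of these 21 genes, 16 had a higher TE in the deletion, where 47.4% of the 392 entries did.

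**Figure D2:**
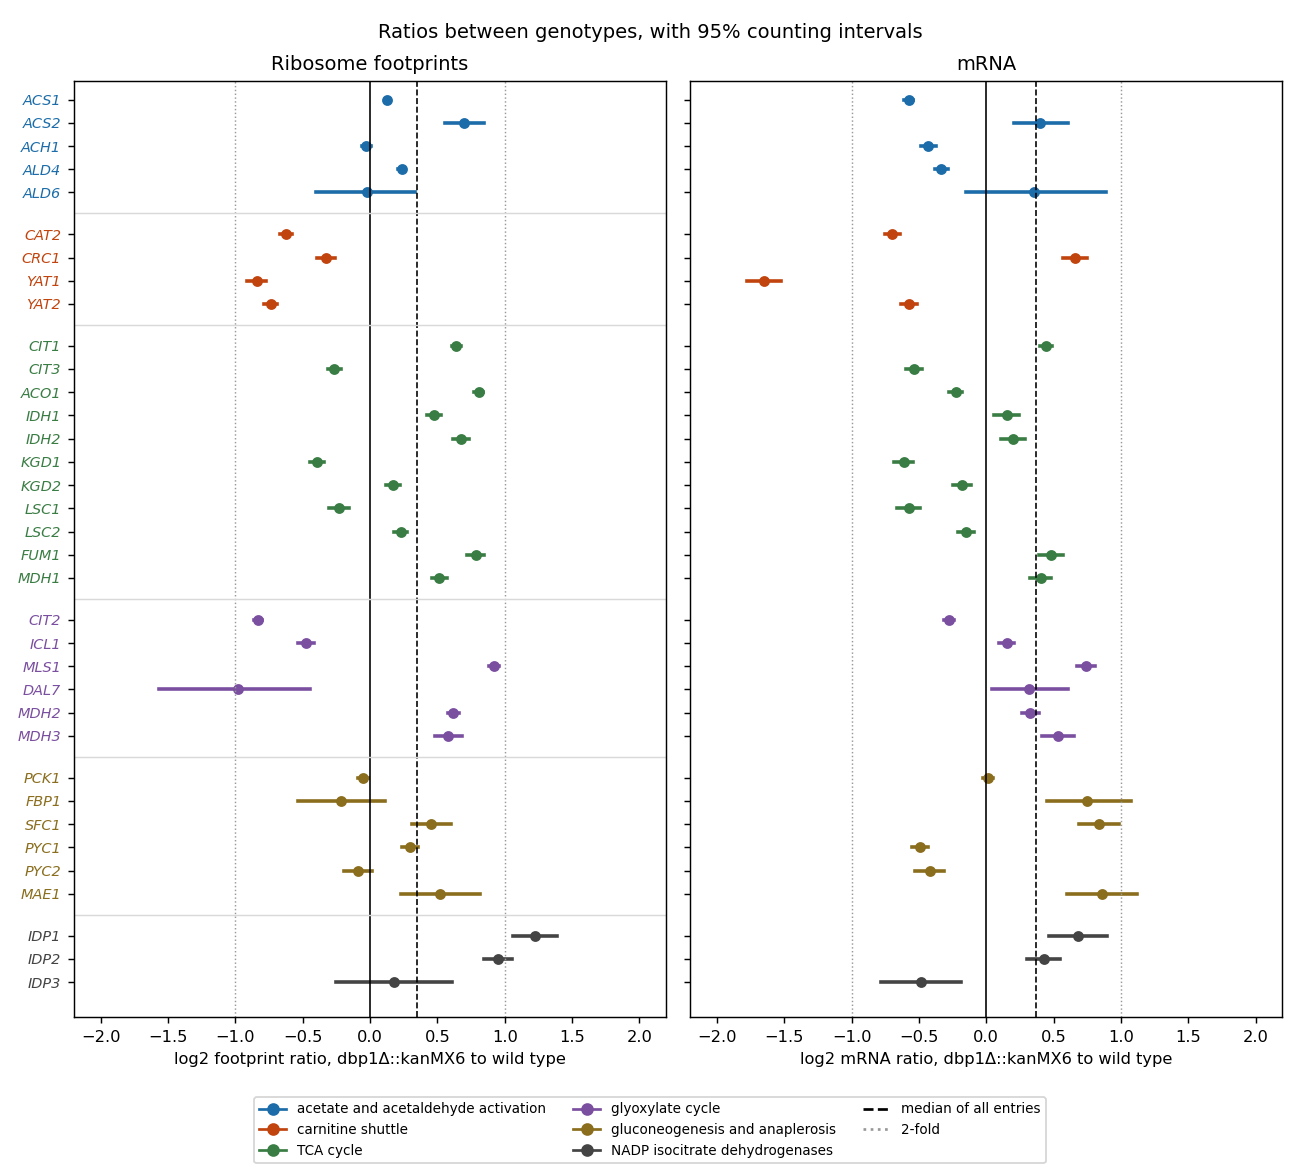
Ratio of the deletion to the wild-type library (log2) for footprints (left) and mRNA (right) of each gene, colored by role; bars are 95% counting intervals, dotted lines mark 2-fold and the dashed line the median of all entries (0.35 and 0.37). The 4 carnitine shuttle genes lie below 0 in footprints, and *YAT1* is the gene farthest left in mRNA at −1.65.

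Activation of acetate rests on acetyl-CoA synthetase, of which *ACS1* (YAL054C) encodes the form used on nonfermentable carbon and *ACS2* (YLR153C) the form used on glucose. *ACS1* mRNA stood at 2626.7 RPKM in the wild-type library and 1760.1 RPKM in the deletion library, 1.49-fold lower (1.46 to 1.53). Its footprints were nevertheless 9167.7 and 9985.9 RPKM, a ratio of 1.09 (1.08 to 1.10), so that its TE was 3.49 in wild type and 5.67 in the deletion, 1.63-fold higher (1.59 to 1.67). Relative to the median entry its footprint ratio was −0.22 (log2), below wild type. At these values *ACS1* mRNA was the second most abundant of the group in wild type and the fourth in the deletion, while its footprints ranked first in both. *ACS2* was far lower, at 83.0 and 134.8 RPKM of footprints and 61.0 and 80.5 RPKM of mRNA, and was higher in the deletion in both assays, by 1.62-fold (1.47 to 1.80) and 1.32-fold (1.15 to 1.52). The ratio of *ACS1* to *ACS2* mRNA was accordingly 43.1 in wild type and 21.9 in the deletion, 1.97-fold lower (1.71 to 2.26), although *ACS1* still made up 95.6% of the summed mRNA RPKM of the pair.

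Acetaldehyde dehydrogenases make acetate from acetaldehyde. *ALD4* (YOR374W) showed the *ACS1* pattern at a smaller size, with footprints of 3430.8 and 4036.3 RPKM, 1.18-fold higher (1.15 to 1.20), and mRNA of 1473.8 and 1170.2 RPKM, 1.26-fold lower (1.22 to 1.30). Its TE was 2.33 in wild type and 3.45 in the deletion, and its footprint ratio relative to the median entry was −0.11 (log2). *ALD6* (YPL061W) was low, at 23.0 and 22.6 RPKM of footprints and 13.2 and 16.9 RPKM of mRNA, and all 3 of its intervals held 1, with an mRNA ratio of −0.014 (log2) relative to the median entry. *ALD4* took 98.6% to 99.4% of the summed RPKM of this pair in every library. *ACH1* (YBL015W), a CoA transferase that moves CoA from succinyl-CoA to acetate in mitochondria, had 2452.3 and 2407.5 RPKM of footprints and 1362.1 and 1011.5 RPKM of mRNA. For *ACS1*, *ALD4* and *ACH1*, then, mRNA was 1.26-fold to 1.49-fold lower in the deletion while footprints as deposited were within 1.18-fold of wild type.

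The carnitine shuttle was the set in which footprints were lower for each member. *CAT2* (YML042W) encodes the carnitine acetyltransferase of mitochondria and peroxisomes, *YAT1* (YAR035W) that of the outer mitochondrial membrane and *YAT2* (YER024W) a further one, and *CRC1* (YOR100C) encodes the carrier that brings acetylcarnitine across the inner membrane. Footprints of *CAT2* stood at 1508.3 and 980.2 RPKM, 1.54-fold lower (1.49 to 1.59), with mRNA of 1041.0 and 642.1 RPKM, 1.62-fold lower (1.56 to 1.68). *YAT2* had footprints of 973.3 and 583.1 RPKM, 1.67-fold lower (1.62 to 1.73), and mRNA of 660.4 and 443.6 RPKM, 1.49-fold lower (1.43 to 1.55). In these cases the ratios of the 2 assays were similar, and TE ratios were 1.05 for *CAT2* and 0.892 for *YAT2*.

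*YAT1* and *CRC1* were the members whose 2 assays differed most. *YAT1* mRNA stood at 270.8 RPKM in the wild-type and 86.3 RPKM in the deletion library, 3.14-fold lower (2.87 to 3.43), the 78th largest decrease among 5551 entries. Its footprints, at 657.1 and 366.7 RPKM, were 1.79-fold lower (1.71 to 1.88), and its TE of 2.43 and 4.25 was therefore 1.75-fold higher (1.59 to 1.93). *CRC1* went the opposite way, with mRNA of 589.6 and 929.8 RPKM, 1.58-fold higher (1.48 to 1.68), but footprints of 1083.3 and 862.8 RPKM, 1.26-fold lower (1.20 to 1.32). The TE of *CRC1* was 1.84 in wild type and 0.928 in the deletion, 1.98-fold lower (1.83 to 2.14). Across the 4 genes the median log2 ratio was −0.68 for footprints and −0.64 for mRNA, against 0.35 and 0.37 for the median entry. The 4 footprint intervals and the mRNA intervals of the 3 acetyltransferases lay below 1 and below the median entry. The middle meiotic genes were lower in the same libraries, with a median log2 ratio of −1.17 for footprints and −0.77 for mRNA. Their sums, led by *SPS2* and *SPS4*, were 2.64-fold lower for footprints and 2.27-fold lower for mRNA. Whether the carnitine genes follow the meiotic stage was not tested.

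Within the acetyltransferases the division of footprints was nearly the same in both genotypes, whereas that of mRNA was not. *YAT1* took 20.9% of their summed footprint RPKM in wild type (20.5 to 21.4) and 19.0% in the deletion (18.3 to 19.7). Of their summed mRNA RPKM it took 13.7% (13.0 to 14.5) and 7.36% (6.90 to 7.85). The ratio of *YAT1* to *YAT2* was 1.07-fold lower for footprints (1.01 to 1.14) and 2.11-fold lower for mRNA (1.91 to 2.32), a difference that does not depend on how the libraries are scaled.

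In the TCA cycle TE differed in a common direction. It was higher in the deletion for 11 of 11 genes, where 44.8% of 5452 entries had a higher TE. The log2 ratios of the 11 genes ran from 0.11 to 1.04 with a median of 0.32, and each of the 11 intervals lay above 1 and above the median entry. Behind this, as deposited, lay 3 patterns. For 5 genes (*CIT1*, *IDH1*, *IDH2*, *FUM1*, *MDH1*) both footprints and mRNA were higher, for 3 (*ACO1*, *KGD2*, *LSC2*) footprints were higher and mRNA lower, and for 3 (*CIT3*, *KGD1*, *LSC1*) both were lower, footprints less so than mRNA. Relative to the median entry the patterns held 3 (*CIT1*, *FUM1*, *MDH1*), 3 (*ACO1*, *IDH1*, *IDH2*) and 5 genes (*CIT3*, *KGD1*, *KGD2*, *LSC1*, *LSC2*), since the mRNA ratios of *IDH1* and *IDH2* became −0.22 and −0.17 (log2) and the footprint ratios of *KGD2* and *LSC2* −0.18 and −0.12. The median log2 ratio was 0.48 for footprints and −0.15 for mRNA.

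*ACO1* (YLR304C), whose product turns citrate into isocitrate and also helps to maintain mitochondrial DNA, had the largest TE ratio of the 35 genes. It had 1304.3 and 2283.4 RPKM of footprints, 1.75-fold higher (1.71 to 1.79), on mRNA of 936.1 and 799.0 RPKM, 1.17-fold lower (1.13 to 1.21). TE was thus 1.39 and 2.86, 2.05-fold higher (1.97 to 2.14), the 167th largest increase among 5452 entries. Of the citrate synthases in mitochondria, *CIT1* (YNR001C) was higher in both assays, with 2088.2 and 3254.5 RPKM of footprints, 1.56-fold (1.52 to 1.60), and 1803.8 and 2451.0 RPKM of mRNA, 1.36-fold (1.32 to 1.40). *CIT3* (YPR001W), a minor citrate and methylcitrate synthase, was lower in both, with 1513.6 and 1258.3 RPKM of footprints and 1228.6 and 846.7 RPKM of mRNA.

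The NAD-dependent isocitrate dehydrogenase is built of the subunits *IDH1* (YNL037C) and *IDH2* (YOR136W), which differed between genotypes alike. *IDH1* had 1370.2 and 1905.0 RPKM of footprints and 556.7 and 618.9 RPKM of mRNA. *IDH2* had 983.0 and 1570.6 RPKM of footprints and 601.5 and 690.4 RPKM of mRNA. Their mRNA ratio of 0.926 in wild type and 0.896 in the deletion did not differ beyond counting error, as the interval of the fold, 0.887 to 1.06, holds 1. The footprint ratio of 1.39 and 1.21 differed 1.15-fold (1.09 to 1.21).

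In the next enzymes of the cycle the subunits differed unequally. *KGD1* (YIL125W) and *KGD2* (YDR148C) encode the E1 and E2 components of the 2-oxoglutarate dehydrogenase complex. *KGD1* was lower in the deletion, with 657.2 and 501.1 RPKM of footprints and 391.1 and 255.7 RPKM of mRNA, 1.53-fold lower (1.45 to 1.61). *KGD2* had 1192.5 and 1343.0 RPKM of footprints and 841.4 and 741.7 RPKM of mRNA. The ratio of *KGD1* to *KGD2* was 0.551 and 0.373 in footprints, 1.48-fold lower (1.41 to 1.55), and 0.465 and 0.345 in mRNA, 1.35-fold lower (1.26 to 1.44). The subunits of succinyl-CoA ligase showed the same kind of gap. *LSC1* (YOR142W), the alpha subunit, had 903.1 and 770.3 RPKM of footprints and 895.1 and 600.1 RPKM of mRNA, whereas *LSC2* (YGR244C), the beta subunit, had 1299.2 and 1521.0 RPKM and 1151.9 and 1038.4 RPKM. The ratio of *LSC1* to *LSC2* was 1.37-fold lower in footprints (1.29 to 1.46) and 1.34-fold lower in mRNA (1.25 to 1.44). In both enzymes the gap was of about the same size in mRNA and in footprints.

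Fumarase makes malate from fumarate. *FUM1* (YPL262W) had 558.7 and 962.4 RPKM of footprints, 1.72-fold higher (1.65 to 1.80), and 427.6 and 596.1 RPKM of mRNA, 1.39-fold higher (1.31 to 1.48). The 3 malate dehydrogenases of mitochondria (*MDH1*, YKL085W), cytosol (*MDH2*, YOL126C) and peroxisomes (*MDH3*, YDL078C) were higher in the deletion by similar amounts. Footprints of *MDH1* were 1212.2 and 1731.4 RPKM, of *MDH2* 2110.3 and 3240.2 RPKM and of *MDH3* 352.6 and 527.0 RPKM, ratios of 1.43, 1.54 and 1.49. Their mRNA was 797.7 and 1054.9, 1156.0 and 1451.5, and 333.5 and 482.3 RPKM, ratios of 1.32, 1.26 and 1.45, of which that of *MDH2* was −0.042 (log2) relative to the median entry. The division among the 3 was accordingly steady, with *MDH2* at 57.4% of the summed footprint RPKM in wild type (56.7 to 58.2) and 58.9% in the deletion (58.2 to 59.6).

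**Figure D3:**
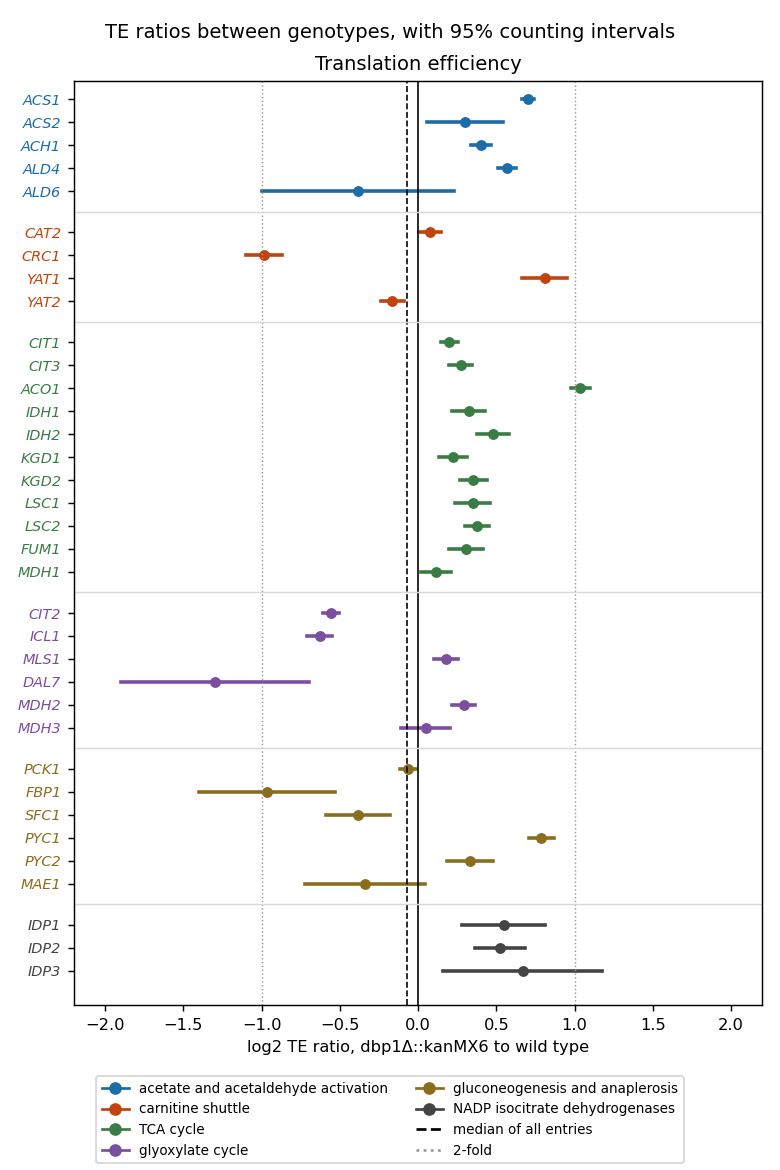
Ratio of TE in the deletion to TE in wild type (log2) for each gene, colored by role; bars are 95% counting intervals, dotted lines mark 2-fold and the dashed line the median of all entries (−0.07). All 11 TCA cycle genes lie to the right of 0, from 0.11 to 1.04, as do the 3 NADP isocitrate dehydrogenases, while *DAL7*, *CRC1*, *FBP1*, *ICL1* and *CIT2* lie to the left.

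The glyoxylate cycle showed no common direction. *CIT2* (YCR005C), the peroxisomal citrate synthase, had 5114.9 and 2871.4 RPKM of footprints, 1.78-fold lower (1.74 to 1.82). Its mRNA was 2634.6 and 2174.1 RPKM, 1.21-fold lower (1.18 to 1.25), and its TE of 1.94 and 1.32 was 1.47-fold lower (1.42 to 1.52). *ICL1* (YER065C) encodes isocitrate lyase, which splits isocitrate into glyoxylate and succinate. Its footprints were 959.4 and 688.8 RPKM, 1.39-fold lower (1.34 to 1.45), although its mRNA was 969.1 and 1076.5 RPKM, 1.11-fold higher (1.07 to 1.16) as deposited but −0.22 (log2) relative to the median entry. Its TE was 0.990 and 0.640.

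Malate synthase, which joins glyoxylate with acetyl-CoA, went the other way. *MLS1* (YNL117W) had footprints of 1370.4 and 2593.7 RPKM, 1.89-fold higher (1.84 to 1.94), and mRNA of 636.4 and 1063.0 RPKM, 1.67-fold higher (1.60 to 1.75). The lyase and the synthase of the cycle thus differed in opposite directions in footprints. In mRNA both were higher as deposited, but relative to the median entry *ICL1* was lower at −0.22 (log2) and *MLS1* higher at 0.37. *DAL7* (YIR031C), a malate synthase paralog regulated with the allantoin genes of nitrogen use, had 14.4 and 7.3 RPKM of footprints, 1.97-fold lower (1.36 to 2.96), and 38.8 and 48.4 RPKM of mRNA, 1.25-fold higher (1.03 to 1.52) but −0.051 (log2) relative to the median entry. Its TE of 0.371 and 0.151, 2.46-fold lower (1.62 to 3.74), rests on 98 and 39 inferred footprint reads. *DAL7* made up 1.04% of the footprint RPKM of the pair in wild type and 0.281% in the deletion.

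The leading citrate synthase differed between genotypes. *CIT2* held 58.7% of their summed footprint RPKM in wild type (58.3 to 59.1) and 38.9% in the deletion (38.4 to 39.4). *CIT1* held 24.0% (23.6 to 24.3) and 44.1% (43.5 to 44.6), and *CIT3* 17.4% and 17.0%. In mRNA the shares of *CIT2* were 46.5% and 39.7%, those of *CIT1* 31.8% and 44.8%, and those of *CIT3* 21.7% and 15.5%. The ratio of *CIT1* to *CIT2* was 0.408 and 1.13 in footprints, 2.78-fold higher (2.69 to 2.87), and 0.685 and 1.13 in mRNA, 1.65-fold higher (1.58 to 1.71). These shares are taken within a library, so that no scaling of the libraries alters them. *CIT1* and *CIT2* are similar in sequence, and how reads that match several genes were assigned is not given in the sources used here, although no listed entry names the 2 together.

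**Figure D4:**
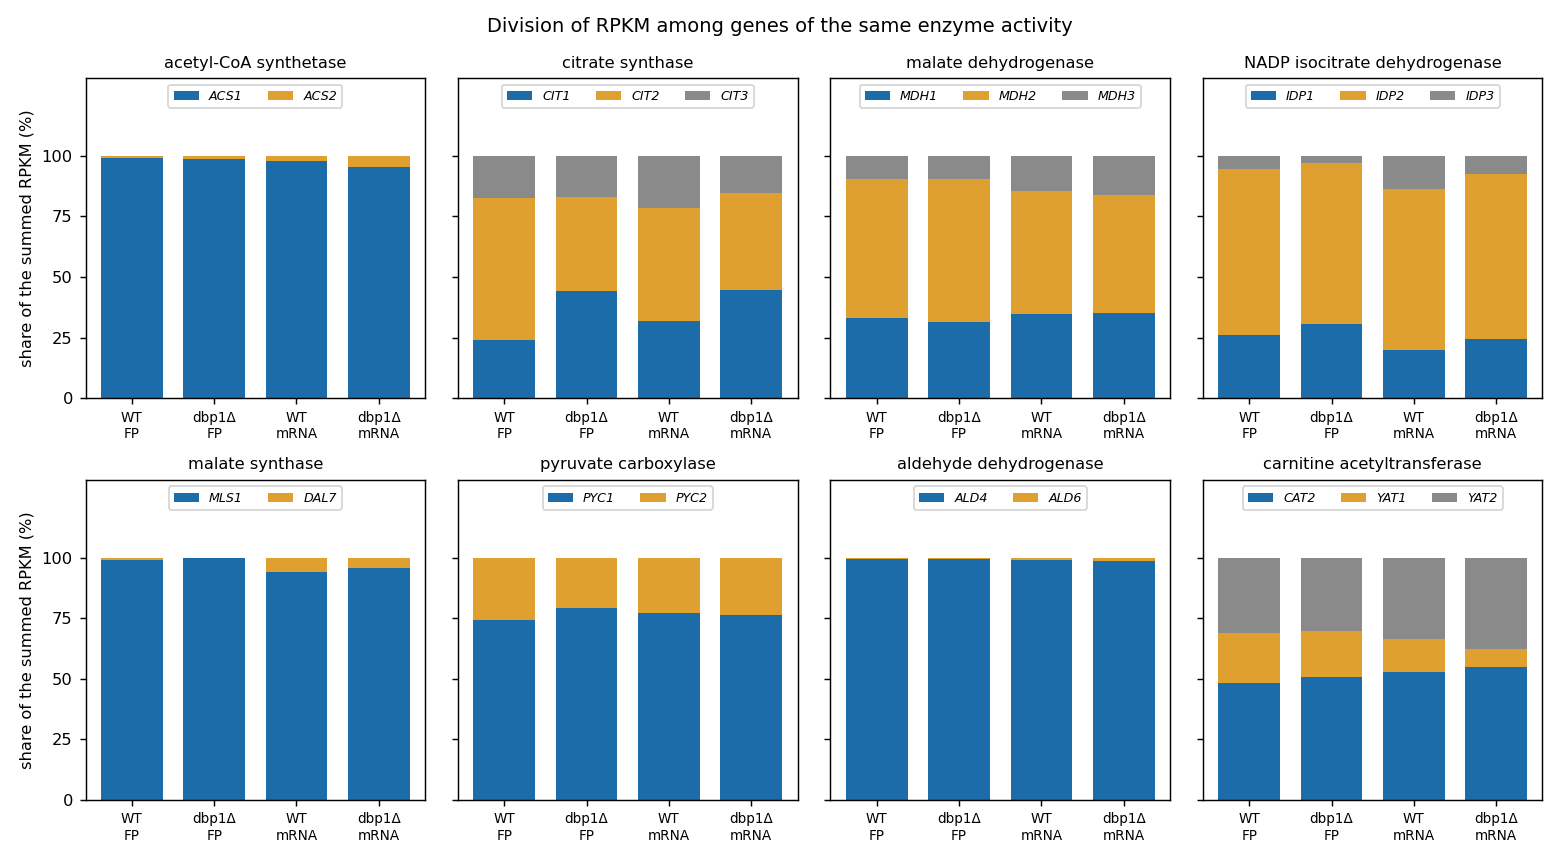
Share of the summed RPKM (%) taken by each gene of 8 isozyme sets, stacked to 100%, in the wild-type (WT) and deletion (dbp1Δ) footprint (FP) and mRNA libraries. In citrate synthase the *CIT1* share is 24.0% and 44.1% in footprints, whereas the malate dehydrogenase bars are nearly the same in both genotypes.

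Gluconeogenesis and anaplerosis were mixed as well. *PCK1* (YKR097W), whose product makes phosphoenolpyruvate from oxaloacetate, stood at 1842.9 and 1776.7 RPKM of footprints and 2574.3 and 2593.5 RPKM of mRNA. Its mRNA ratio of 1.01 (0.983 to 1.03) held 1 and was −0.36 (log2) relative to the median entry, and it was the most abundant mRNA of the group in the deletion. *FBP1* (YLR377C) encodes fructose-1,6-bisphosphatase, a regulated step near the end of the path. It had 46.5 and 40.0 RPKM of footprints, 1.16-fold lower (0.928 to 1.45), but 48.5 and 81.6 RPKM of mRNA, 1.68-fold higher (1.37 to 2.10), so that its TE was 1.96-fold lower (1.45 to 2.65). Of these enzymes particular to gluconeogenesis, the one at the start of the path was thus near the top of the group in wild-type mRNA and the one near its end near the bottom.

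*SFC1* (YJR095W), the carrier that brings succinate made by the glyoxylate cycle into mitochondria in exchange for fumarate, was higher in both assays. It had 185.7 and 254.7 RPKM of footprints, 1.37-fold (1.24 to 1.52), and 217.5 and 389.2 RPKM of mRNA, 1.79-fold (1.61 to 1.98). *MAE1* (YKL029C), the malic enzyme that makes pyruvate from malate, had 21.9 and 31.4 RPKM and 34.8 and 63.1 RPKM, 1.43-fold (1.17 to 1.77) and 1.81-fold (1.52 to 2.18). In both genes mRNA was further above wild type than footprints were, though for *MAE1* not beyond counting error. The TE ratio was 0.766 for *SFC1* (0.665 to 0.884) and 0.791 for *MAE1* (0.606 to 1.03).

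Pyruvate carboxylase makes oxaloacetate from pyruvate and has the near-identical genes *PYC1* (YGL062W) and *PYC2* (YBR218C). *PYC1* had 350.5 and 430.4 RPKM of footprints, 1.23-fold higher (1.18 to 1.28), and 503.9 and 358.8 RPKM of mRNA, 1.40-fold lower (1.35 to 1.46). *PYC2* had 121.0 and 113.5 RPKM of footprints and 149.3 and 111.5 RPKM of mRNA, 1.34-fold lower (1.24 to 1.44). A further entry listed for both genes together had 428.1 and 637.2 RPKM of footprints and 478.1 and 337.6 RPKM of mRNA. Its directions as deposited, up in footprints and down in mRNA, were those of *PYC1*, whose footprint ratio was −0.051 (log2) relative to the median entry, and because reads can fall to any of the 3 entries the division between the 2 genes is uncertain.

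The NADP isocitrate dehydrogenases of mitochondria (*IDP1*, YDL066W), cytosol (*IDP2*, YLR174W) and peroxisomes (*IDP3*, YNL009W) supply NADPH and 2-oxoglutarate. *IDP1* had 90.8 and 212.3 RPKM of footprints, 2.34-fold higher (2.09 to 2.62), the largest footprint ratio of the 35 genes. *IDP1* mRNA was 81.0 and 129.7 RPKM, 1.60-fold higher (1.38 to 1.86). *IDP2* had 237.4 and 459.0 RPKM of footprints, 1.93-fold higher (1.80 to 2.08), and 269.4 and 361.8 RPKM of mRNA, 1.34-fold higher (1.23 to 1.46). *IDP3*, which serves the oxidation of unsaturated fatty acids, had 18.8 and 21.3 RPKM of footprints, −0.17 (log2) relative to the median entry, and 55.8 and 39.8 RPKM of mRNA, and its share of the summed mRNA RPKM of the 3 genes was 13.7% in wild type (11.9 to 15.9) and 7.49% in the deletion (6.63 to 8.46). TE was higher in the deletion for 3 of 3, where 44.8% of 5452 entries had a higher TE. It was 1.46-fold higher for *IDP1* (1.21 to 1.76), 1.44-fold for *IDP2* (1.29 to 1.61) and 1.59-fold for *IDP3* (1.12 to 2.26).

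Over the 35 genes, footprint and mRNA ratios were related but far from equal. Across genes, which share libraries and are not independent replicates, Pearson's r was 0.557 and Spearman's rho 0.571. Footprints and mRNA were both higher for 13 genes and both lower for 9, and they took opposite directions for 13. Relative to the median entry the counts were 10, 19 and 6, so the number with opposite directions depends on the scaling. As deposited, of the 13, 7 had higher footprints on lower mRNA (among them *ACS1*, *ALD4* and *ACO1*) and 6 had lower footprints on higher mRNA (among them *CRC1*, *ICL1* and *DAL7*).

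**Figure D5:**
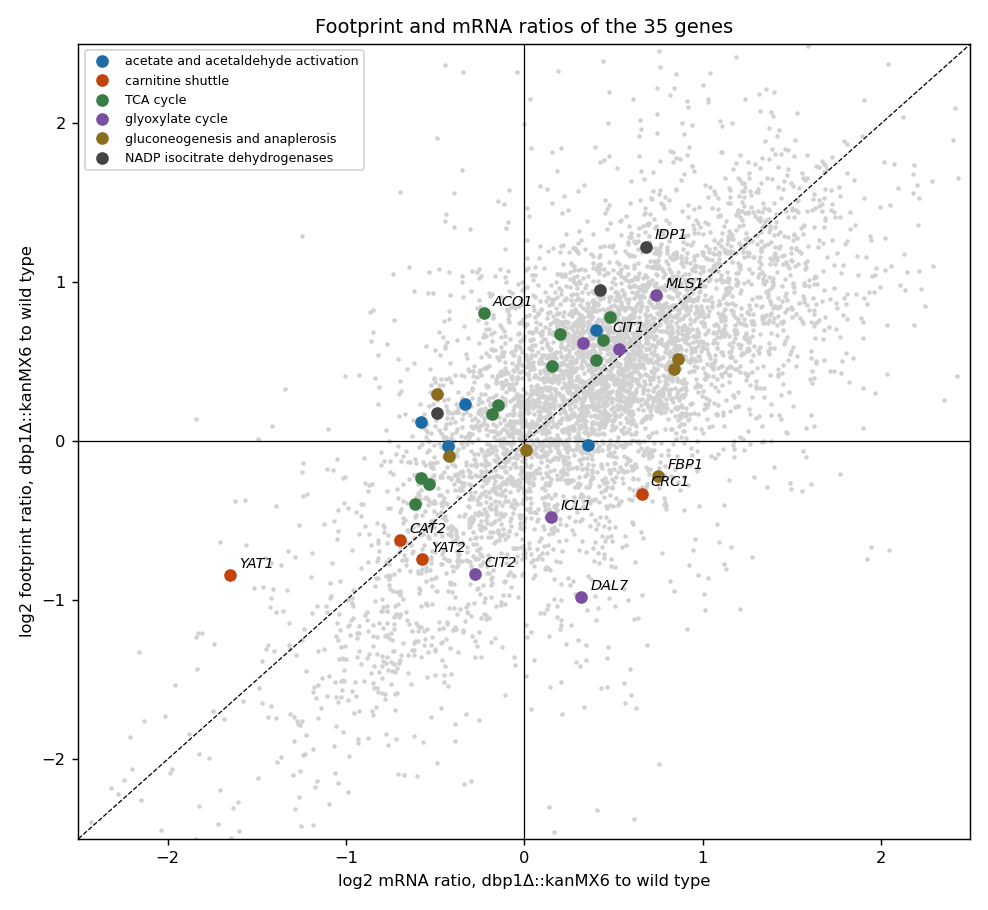
Log2 ratio of footprints (vertical axis) against log2 ratio of mRNA (horizontal axis), deletion to wild type, for the 35 genes colored by role and, in gray, for 5452 entries, of which 113 lie outside the axes at ±2.5 and are not drawn. Points above the dashed diagonal have a higher TE in the deletion, which holds for 25 of the 35 genes, and *IDP1* is the highest of the colored points.

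Other genes of acetate, ethanol and pyruvate use, in 7 lists of 54 genes of which 53 passed the filter, showed mostly small differences. At least 2-fold, footprints were higher for 5 and lower for 1, mRNA was higher for 5 and lower for 1, and TE was higher for 3 and lower for 0, to be read against the shares of all entries given above. The other TCA subunits had none at 2-fold in footprints, mRNA or TE, and TE was higher for 5 of 7, where 44.8% of 5452 entries had a higher TE. In that list *SDH4*, a membrane subunit of succinate dehydrogenase, had the largest footprint ratio at 1.31 (1.23 to 1.39), and *KGD4*, a small subunit of the 2-oxoglutarate dehydrogenase complex, had 1.43-fold lower footprints (1.30 to 1.57).

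The mitochondrial carriers of organic acids formed the list with the largest differences. Of its 6 genes, 6 were higher in the deletion in footprints and in mRNA, with 3 and 4 at 2-fold or more. Among all entries 68.7% were higher in footprints and 71.3% in mRNA, with 15.1% and 16.6% at 2-fold or more. Most of the 6 genes were expressed at low levels, where ratios are less precise. *OAC1*, the oxaloacetate carrier, had footprints of 1.0 and 11.0 RPKM, a ratio of 11.0 that rests on 4 inferred reads in wild type (3.95 to 42.8). *ODC2*, an oxodicarboxylate carrier, had mRNA of 9.2 and 32.0 RPKM, 3.48-fold higher (2.12 to 5.88). The more abundant *ODC1* had mRNA of 186.4 and 404.2 RPKM, 2.17-fold higher (1.94 to 2.43).

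Transporters of acetate and lactate at the plasma membrane were lower in footprints for 4 of 4, where 68.7% of 5453 entries were higher. The intervals of 3 lay below 1, and that of *ATO2*, at 156.6 and 148.2 RPKM with a ratio of 0.946 (0.830 to 1.08), held 1. *ATO3* had 462.9 and 387.8 RPKM of footprints. *ADY2*, an acetate permease, exceeded every one of the 35 genes at 16365.9 and 15180.3 RPKM of footprints and 12513.1 and 9393.0 RPKM of mRNA. *JEN1*, the lactate and pyruvate permease, had 258.7 and 86.2 RPKM of footprints, 3.00-fold lower (2.72 to 3.31), and 723.0 and 440.8 RPKM of mRNA, 1.64-fold lower. Among ethanol and acetaldehyde enzymes, *ADH2*, the alcohol dehydrogenase that consumes ethanol, had mRNA of 1214.3 and 578.8 RPKM, 2.10-fold lower (1.99 to 2.21), and *ALD3* footprints of 1.0 and 3.6 RPKM on 6 and 18 inferred reads. For pyruvate, *PDA1*, the E1 alpha subunit of pyruvate dehydrogenase, had 1.76-fold higher footprints (1.67 to 1.85) and *MPC3*, a subunit of the mitochondrial pyruvate carrier, 1.98-fold lower ones (1.87 to 2.09).

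The regulators of these genes differed in both directions. Of 15 listed, footprints were higher in the deletion for 11 and lower for 4, where 68.7% of 5453 entries were higher. Their mRNA was higher for 9 and lower for 6, where 28.6% of 5551 entries were lower. *CAT8*, the activator of gluconeogenic and glyoxylate genes, had footprints of 117.7 and 64.5 RPKM, 1.82-fold lower (1.69 to 1.98), on mRNA of 67.2 and 39.7 RPKM. *MIG1*, the glucose repressor, had footprints of 6.9 and 24.4 RPKM, 3.54-fold higher (2.47 to 5.11). *ADR1*, an activator of *ADH2* and of peroxisomal genes, had mRNA of 206.9 and 113.8 RPKM, 1.82-fold lower (1.71 to 1.94), under footprints of 72.3 and 112.2 RPKM. In the list of GID ubiquitin ligase subunits, which mark gluconeogenic enzymes for degradation when glucose returns, the substrate receptor gene *VID24* had mRNA of 65.2 and 175.9 RPKM, 2.70-fold higher (2.28 to 3.22), and *GID8* footprints of 297.5 and 150.0 RPKM, 1.98-fold lower (1.81 to 2.17).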

How the data were processed

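Footprints and mRNA of SK1 cells were each measured in 1 wild-type and 1 *dbp1Δ::kanMX6* library, grouped by their titles. Mapping by the authors was to the SK1 genome, and they deposited RPKM, the raw reads of an ORF over its length in kilobases and the mapped reads of the library (per 1000000), to 1 decimal. The submitters' processing notes name CASAVA, bcl2fastq 2.17 and Bowtie2. The annotation, the use of strand and the handling of multiply matching reads are not given in the sources used here. SK1 coordinates and sequences were not used here. Names and ORF lengths came from the RefSeq table of assembly R64, which held a length for 5771 entries and for 35 of the 35 genes, none of which overlaps another gene there. Of the 6549 entries, 199 name several ORFs.

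Ratios used a pseudocount of 0 and summaries the 5552 entries that averaged 10 RPKM or more, as all 35 genes did. Entries at 0 where a ratio needs a value were dropped from it, so 5453 had a footprint, 5551 an mRNA and 5452 a TE ratio. Depth was inferred as the value that best brought ORFs of at most 600 bp and at most 30 RPKM to whole reads, which gave 4095000 and 3245000 reads for wild-type and deletion footprints and 2215000 and 4750000 for mRNA. At these depths 82.7%, 85.2%, 89.2% and 87.1% of 115 to 157 values lay within 0.15 reads of a whole number, where chance gives 30%. Footprint and mRNA ratios have exact Clopper-Pearson intervals conditional on the summed inferred reads, and intervals of TE, shares and gene-to-gene ratios are log-scale or logit-scale intervals from summed inverse reads. They cover counting error only, since each genotype and assay has 1 library. PCR copies were not marked by molecular identifiers, so copies of 1 molecule may count as several reads and the intervals may be too narrow. Depth inference and intervals were tested on simulated data. Python 3.11.15, numpy 2.4.6, pandas 2.3.3 and scipy 1.17.1 were used.

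The members, roles and lists were chosen with earlier results of these data known. The rule for naming gave 4 values for genes at 2-fold, for isozymes and subunit pairs and for the 5 highest and 3 lowest in wild-type mRNA, and for the other lists the extremes in each direction, of which 1 is not reported here. *ACH1*, *CRC1*, *FUM1*, *ICL1*, *FBP1*, *SFC1* and *MAE1*, and *ODC1*, *ADY2* and *SIP4* of the other lists, fall outside that rule and were given after their values were seen, so that each of the 35 genes is accounted for. Alternatives were pseudocounts of 0.1 and 1, no filter and filters at 50 and 500 RPKM (the last chosen after seeing the data), centring on the median entry, trimmed-mean scaling (with 30% of ratios and 5% of levels removed per side), thresholds of 1.5-fold and 4-fold, and shared entries added to their members.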

Additional observations from a re-analysis of the deposited data

How the results depend on the processing

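No paired analysis was possible because each genotype and assay has 1 library and no replicate numbers are shared. Of 681 values of single genes under the alternatives, 542 stayed within the counting interval of the value reported and 139 left it. None of the values at 2-fold changed direction, whereas among smaller ratios centring on the median entry turned 6 in footprints, 7 in mRNA and 1 in TE, and trimmed-mean scaling 6, 7 and 0. Pseudocounts of 0.1 and 1 RPKM and no filter left the counts at 2-fold and the directions of the medians as reported. Centring on the median entry and trimmed-mean scaling put the median footprint ratio of the 35 genes at −0.17 and −0.17 and the median mRNA ratio at −0.22 and −0.21, in place of 0.18 and 0.15, with 0 genes 2-fold higher and 4 lower in footprints and 2 lower in mRNA under each. The median mRNA ratio was 0.011 with a filter at 50 RPKM and −0.15 with a filter at 500 RPKM, which keep 31 and 21 of the genes. The filter at 500 RPKM also left 0 genes 2-fold higher in footprints, 0 lower in mRNA and 0 lower in TE, and that at 50 RPKM 0 lower in TE, since *IDP1*, *YAT1* and *DAL7* average less than 500 RPKM and *DAL7* less than 50 RPKM. At 1.5-fold, 9 genes were higher and 5 lower in footprints, 6 and 3 in mRNA, and 5 and 4 in TE (shares of all entries 36.3% and 13.9%, 36% and 9.12%, and 10.7% and 18%), and at 4-fold the counts of footprints higher, mRNA lower, TE higher and TE lower were all 0. The median TE ratio was between 0.29 and 0.36 in every setting tried. Adding the shared *PYC1* and *PYC2* entry to both genes moved the median wild-type mRNA level from 601.5 to 636.4 RPKM. Depth limits the low genes most: *DAL7*, *ALD6*, *IDP3*, *MAE1* and *FBP1* have the widest intervals, and for *ALD6* no difference was detectable at this depth.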
